A study of Mus musculus with 6 samples.

Results

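Glycolysis splits glucose into pyruvate in the cytosol, and lactate dehydrogenase can turn that pyruvate into lactate, which leaves the cell through monocarboxylate transporters. Several of its steps are catalysed by isoforms from separate genes, so that skeletal muscle fibres use a set that differs from the one in most other cells. When oxygen is scarce, the transcription factor HIF-1 raises transcription of many glycolytic genes and of genes for hypoxia responses, and activated immune cells also use this programme. The genes described here are the glucose transporters, the enzymes of glycolysis and lactate metabolism, the kinases that set their flux, and a group of genes linked to hypoxia. They were chosen by name: of 38 symbols, 37 had an entry of their own among the 23351 genes of the deposited table, and all 37 passed the minimum of 0.5 FPKM (mapped fragments relative to transcript length and to library total) as a mean over the 6 libraries. Eno1, the enolase of most tissues, appeared only in an entry joined with Gm5506 and is given beside the others without being counted.

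The 6 libraries came from repair tissue of C57BL/6 mice, taken as periosteum together with quadriceps muscle where the bone had been injured. In 3 of them the mice had received Empty-lip and in the other 3 Clod-lip, taken here as liposomes without and with clodronate, an agent that kills phagocytic cells. The labels give neither age, sex, time after injury nor whether each sample is a separate animal, so p-values reflect spread among libraries, which may be technical. Read counts were not used here and the depth is unknown. Summed FPKM per library ran from 561414 to 606630 once genes of microRNA and other small RNA classes were set aside.

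In Clod-lip, 5 of 7 muscle-type isoforms of glycolysis rose, while no isoform of other tissues and no hypoxia-linked gene passed the test. Of the 37 genes, 8 rose, 0 fell and 29 did not pass by limma on log2(FPKM + 1), at a Benjamini-Hochberg adjusted p of 0.05 over the 13408 genes tested. The 8 are 21.6% of the genes described, beside 2.84% of all genes tested that rose, 1.21% that fell and 4.05% that did either. At an unadjusted p under 0.05, 13 of the 37 were higher and 2 lower, where 11.4% of all genes tested were higher and 10.4% lower. The authors' deposited table called 11 of them higher and 2 lower, and over the genes its authors tested it called 6.82% higher and 5.41% lower. The 3 Clod-lip libraries lay above all 3 Empty-lip libraries for 12 of the 37 and below them for 1, where 14.0% and 13.4% of all genes tested did so. The median log2 change was 0.11 over the 37 and -0.01 over all genes tested.

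**Figure D1:**
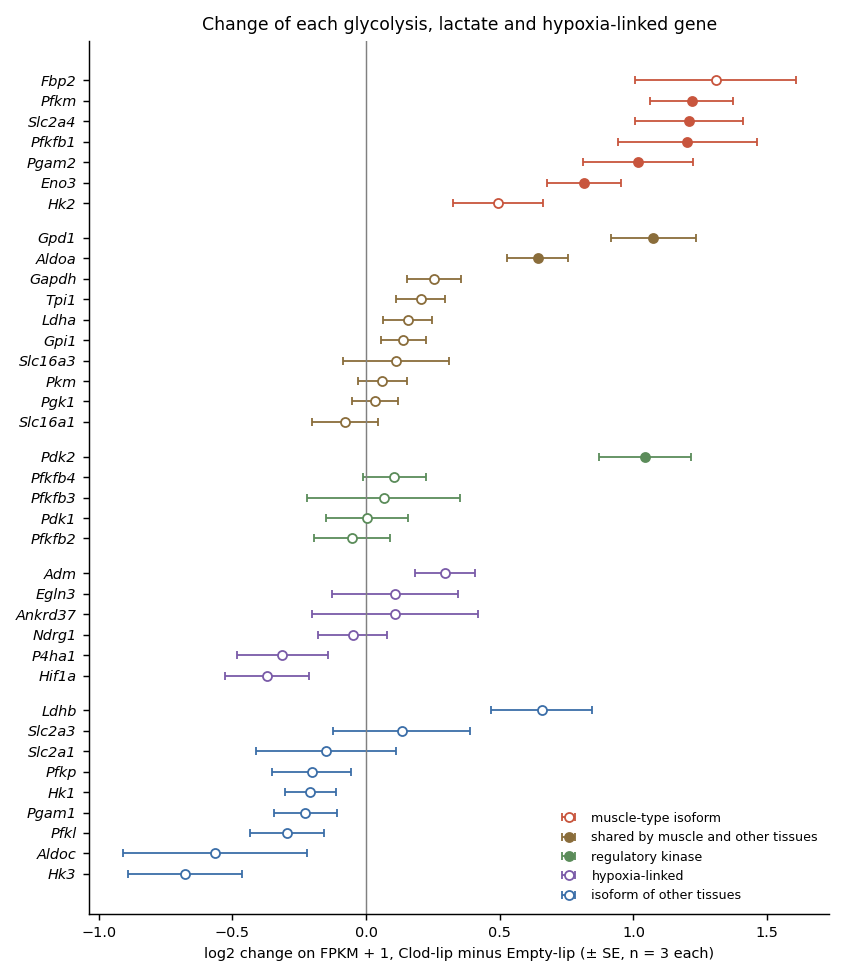
Log2 change on FPKM + 1, Clod-lip minus Empty-lip, with its standard error from limma (n = 3 libraries each), for the 37 genes in 5 classes. Filled points passed an adjusted p of 0.05. All 7 muscle-type isoforms lie to the right of 0, between 0.49 and 1.31, and 7 of the 9 isoforms of other tissues lie to the left.

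By class, the separation was as follows. Of 7 muscle-type isoforms, 5 rose and 2 did not pass, with a median log2 change of 1.20. Of 9 isoforms of other tissues, 0 passed in limma, and 1 was higher and 1 lower at an unadjusted p under 0.05, near the 11.4% and 10.4% over all genes, and the authors' deposited table likewise called 1 higher and 1 lower. Their median was -0.21. Of 10 genes used by muscle and other tissues alike, 2 rose and 8 did not pass (median 0.15), and of 5 regulatory kinases outside these classes 1 rose (median 0.07). Of 6 hypoxia-linked genes 0 passed (median 0.03). The count of 8 changed when 1 library was left out: it became 0 on leaving out Empty-lip 2, Clod-lip 1 or Clod-lip 3, became 3 on leaving out Empty-lip 3, and 5 on leaving out Empty-lip 1. All 8 kept a positive sign in each of these. Leaving out Clod-lip 2 gave 9 that rose, Fbp2 being added, and 3 that fell, Hk3, Aldoc and Hif1a, where 4.55% of all genes tested rose and 5.83% fell.

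Promoters are shown for 4 genes because they span the contrast between genes that rose and genes that did not. Pgam2, the phosphoglycerate mutase of muscle, and Eno3, the enolase of muscle, rose; Pgam1, the mutase of most tissues, and Ankrd37, an ankyrin repeat gene induced by HIF-1, did not pass. Each runs 5′ to 3′ on the gene's strand, from 250 bases before to 50 after the start, from RefSeq on GRCm38.p6. Capitals mark ACGTG or GCGTG, the core letters bound by HIF-1, on either strand, so that CACGT and CACGC are their reverse complements. The windows are chr11:5803747-5804046 (minus strand) for Pgam2, chr19:41911621-41911920 (plus strand) for Pgam1, chr11:70656926-70657225 (plus strand) for Eno3 and chr8:45999801-46000100 (minus strand) for Ankrd37.
Pgam2: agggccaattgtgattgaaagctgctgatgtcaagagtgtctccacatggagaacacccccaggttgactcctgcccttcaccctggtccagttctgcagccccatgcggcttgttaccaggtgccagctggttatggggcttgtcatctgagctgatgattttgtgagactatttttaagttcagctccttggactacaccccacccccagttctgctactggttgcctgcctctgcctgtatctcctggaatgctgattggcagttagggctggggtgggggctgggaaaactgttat
Pgam1: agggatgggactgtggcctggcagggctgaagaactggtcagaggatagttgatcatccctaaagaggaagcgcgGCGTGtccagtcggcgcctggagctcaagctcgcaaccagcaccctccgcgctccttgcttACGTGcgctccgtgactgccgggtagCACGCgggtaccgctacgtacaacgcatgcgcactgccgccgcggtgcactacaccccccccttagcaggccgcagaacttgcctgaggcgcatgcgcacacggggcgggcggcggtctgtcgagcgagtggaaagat
Eno3: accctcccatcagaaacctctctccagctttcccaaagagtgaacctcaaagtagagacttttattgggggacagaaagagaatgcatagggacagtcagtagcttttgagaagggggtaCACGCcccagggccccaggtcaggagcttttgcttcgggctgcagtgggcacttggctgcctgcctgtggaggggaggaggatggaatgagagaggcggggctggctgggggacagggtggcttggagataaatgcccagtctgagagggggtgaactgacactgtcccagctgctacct
Ankrd37: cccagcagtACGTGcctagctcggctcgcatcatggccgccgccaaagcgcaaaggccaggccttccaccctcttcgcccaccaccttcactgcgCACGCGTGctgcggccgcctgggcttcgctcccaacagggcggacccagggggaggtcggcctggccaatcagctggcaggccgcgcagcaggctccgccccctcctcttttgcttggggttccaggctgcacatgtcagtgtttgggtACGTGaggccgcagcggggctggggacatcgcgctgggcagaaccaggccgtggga

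The Pgam2 window holds neither motif, and the Pgam1 window, its counterpart in other tissues, holds 1 ACGTG and 2 GCGTG. Eno3 holds 1 GCGTG, and Ankrd37 holds 2 of each, a GCGTG on each strand overlapping in CACGCGTG. Of the other matched genes that rose, Aldoa holds 1 ACGTG, and Pfkm, Pfkfb1 and Pdk2 hold neither motif. Gpi1, Tpi1 and Pdk1, which did not pass, also hold neither, and the other matched genes that did not pass hold at least 1. Each window follows a single RefSeq start. In the GENCODE annotation several windows, among them those of Pfkm, Pfkfb1, Pdk1, Pdk2 and Ankrd37, lie wholly inside the gene. Starts further upstream were not searched, so a motif missing from a window may lie at another start. Promoters were matched for 33 of the 37 genes. ACGTG lay in 18 of these 33, or 54.5%, and in 19.6% of the 32851 promoters of the same length in the table. GCGTG lay in 48.5% and 32.4%. Either motif was found in 43.8% of all promoters and in 26 of the 33. By class it was found in 5 of 5 promoters of hypoxia-linked genes, 8 of 8 of isoforms of other tissues, 7 of 9 of genes shared by tissues, 3 of 5 of regulatory kinases and 3 of 6 of muscle-type isoforms. Base composition differed along the same lines: the median share of G and C was 57.3% over the 33 promoters, 52.7% over all promoters, 69.0% for hypoxia-linked genes and 53.2% for muscle-type isoforms. These matches describe letters in a window and not binding.

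Glucose enters cells through transporters of the Slc2a family. Slc2a4, which encodes GLUT4, the insulin-responsive transporter of muscle and fat (mm10 chromosome 11, 69942539 to 69948188), held 28.9, 29.4 and 16.7 FPKM in Empty-lip 1, 2 and 3 and 53.7, 56.2 and 62.4 FPKM in Clod-lip 1, 2 and 3. The groups did not overlap, and the lowest Empty-lip value was in library 3. The mean rose 2.30-fold, or by 1.21 ± 0.20 (SE) on the log2 scale (limma adjusted p = 0.0263). Slc2a1, the GLUT1 transporter of most tissues and the transporter of the 3 with the highest mean over all libraries, held 56.7, 51.5 and 40.6 FPKM in the Empty-lip libraries and 28.8, 62.7 and 47.8 FPKM in those of Clod-lip. Clod-lip 1 was the lowest of the 6 libraries and Clod-lip 2 the highest, so the groups overlapped (log2 -0.15, limma adjusted p = 0.801). Slc2a3, the high-affinity transporter GLUT3, stood at 4.40 ± 0.780 and 5.15 ± 2.30 FPKM (SD, n = 3 libraries each, as for every mean ± SD below), again with its highest value, 7.76 FPKM, in Clod-lip 2.

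Hexokinases trap glucose as glucose 6-phosphate, and none of their 3 genes passed. Hk2, the main form in muscle, held 26.1, 23.9 and 21.4 FPKM in the Empty-lip libraries and 25.7, 40.6 and 36.9 FPKM in those of Clod-lip. Clod-lip 1 lay within the Empty-lip range and the other Clod-lip libraries above it (log2 0.49, limma adjusted p = 0.145; authors' deposited table, q = 0.00171). Hk1, the form of most tissues and with the highest mean of the 3 over all libraries, held 34.3, 35.7 and 29.9 FPKM in the Empty-lip libraries and 27.9, 30.6 and 27.3 FPKM in those of Clod-lip (log2 -0.21, limma adjusted p = 0.255). Hk3, known from myeloid cells, held 31.1, 37.5 and 33.1 FPKM in the Empty-lip libraries and 14.7, 29.0 and 20.9 FPKM in those of Clod-lip. It was the 1 gene of the 37 for which all Clod-lip libraries lay below all Empty-lip libraries, at -0.68 ± 0.21 on the log2 scale (limma adjusted p = 0.123; authors' deposited table, q = 0.00171). Without Clod-lip 2, Hk3 passed, at -0.91 on the log2 scale (limma adjusted p = 0.0161). Of 10 macrophage markers measured, none at 0 in any library, 4 fell, beside 1.21% of all genes tested. These were Mrc1, Fcgr1, Mertk and Lgmn. C1qa and C1qb did not pass, although all Clod-lip values lay below Empty-lip. Emr1, Csf1r, Cd68 and Cd163 did not pass and overlapped between groups, and the log2 change of Cd163 was positive, at 0.14. The summed level of the 10 macrophage markers was 2989 to 3213 FPKM in Empty-lip and 1677 to 2667 FPKM in Clod-lip. The part of these cells in the Hk3 values was not tested, and in bulk tissue fewer cells of a type cannot be told apart from less RNA per cell.

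Phosphofructokinase commits sugar to glycolysis. Pfkm, its muscle gene (mm10 chromosome 15, 98092589 to 98132451), held 191, 162 and 129 FPKM in the Empty-lip libraries and 392, 321 and 403 FPKM in those of Clod-lip. Every Clod-lip library lay above every Empty-lip library, and the mean rose 2.32-fold (log2 1.22 ± 0.15, limma adjusted p = 0.0151). Pfkl and Pfkp, named for liver and platelet, stood at 42.1 ± 3.10 and 28.0 ± 2.24 FPKM in the Empty-lip libraries and at 34.5 ± 6.46 and 24.5 ± 5.28 FPKM in those of Clod-lip, and did not pass (log2 -0.30 and -0.20). In the GENCODE annotation, exons of Pfkm overlap Senp1 on the opposite strand and Gm26513 on the same strand, and those of Aldoa, Pfkfb1 and Gpd1 overlap Fam57b, Apex2 and Gm16537 on the opposite strand, and whether counting used strand is not given in the sources used here.

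Of the other enzymes of the upper steps, aldolase A rose. Aldoa, the aldolase of muscle and of most other tissues (mm10 chromosome 7, 126795234 to 126800751), was the most abundant of the 37, at 2234, 2106 and 1753 FPKM in the Empty-lip libraries and 3091, 3183 and 3183 FPKM in those of Clod-lip. The Clod-lip libraries lay close together and above all Empty-lip libraries (1.55-fold, log2 0.64 ± 0.11, limma adjusted p = 0.0304). Aldoc, the aldolase of brain, was near the low end at 2.52 ± 0.697 and 1.54 ± 1.31 FPKM and did not pass. Gpi1, glucose 6-phosphate isomerase, stood at 222 ± 14.3 and 245 ± 15.6 FPKM and Tpi1, triose phosphate isomerase, at 522 ± 40.2 and 601 ± 40.6 FPKM. Neither passed (limma adjusted p = 0.386 and 0.252), although all Clod-lip values of Tpi1 lay above those of Empty-lip. Gapdh, Pgk1, Tpi1, Aldoa, Ldha and Pgam1 are known for processed pseudogenes, and reads shared with such copies leave their values uncertain.

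In the lower steps the muscle isoforms of the mutase and of enolase rose beside counterparts that did not pass. Pgam2 (mm10 chromosome 11, 5801640 to 5803733) held 268, 248 and 149 FPKM in the Empty-lip libraries and 461, 422 and 424 FPKM in those of Clod-lip. The groups did not overlap, Empty-lip 3 being lowest (1.96-fold, log2 1.02 ± 0.21, limma adjusted p = 0.0412). Pgam1 held 357, 440.3 and 378 FPKM in the Empty-lip libraries and 305, 384 and 315 FPKM in those of Clod-lip, with overlapping groups (log2 -0.23, limma adjusted p = 0.320). Pgam1 thus exceeded Pgam2 in each Empty-lip library, and Pgam2 exceeded Pgam1 in each Clod-lip library.

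Eno3 (mm10 chromosome 11, 70657202 to 70662513) held 504, 489 and 381 FPKM in the Empty-lip libraries and 927, 719 and 770.0 FPKM in those of Clod-lip. Again no values overlapped (1.76-fold, log2 0.82 ± 0.14, limma adjusted p = 0.0280). The joined entry of Eno1 and Gm5506 stood at 653 ± 46.7 and 614 ± 40.8 FPKM, with log2 at -0.09 (limma adjusted p = 0.640). It was above Eno3 in the 3 Empty-lip libraries and below it in the 3 Clod-lip libraries.

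**Figure D2:**
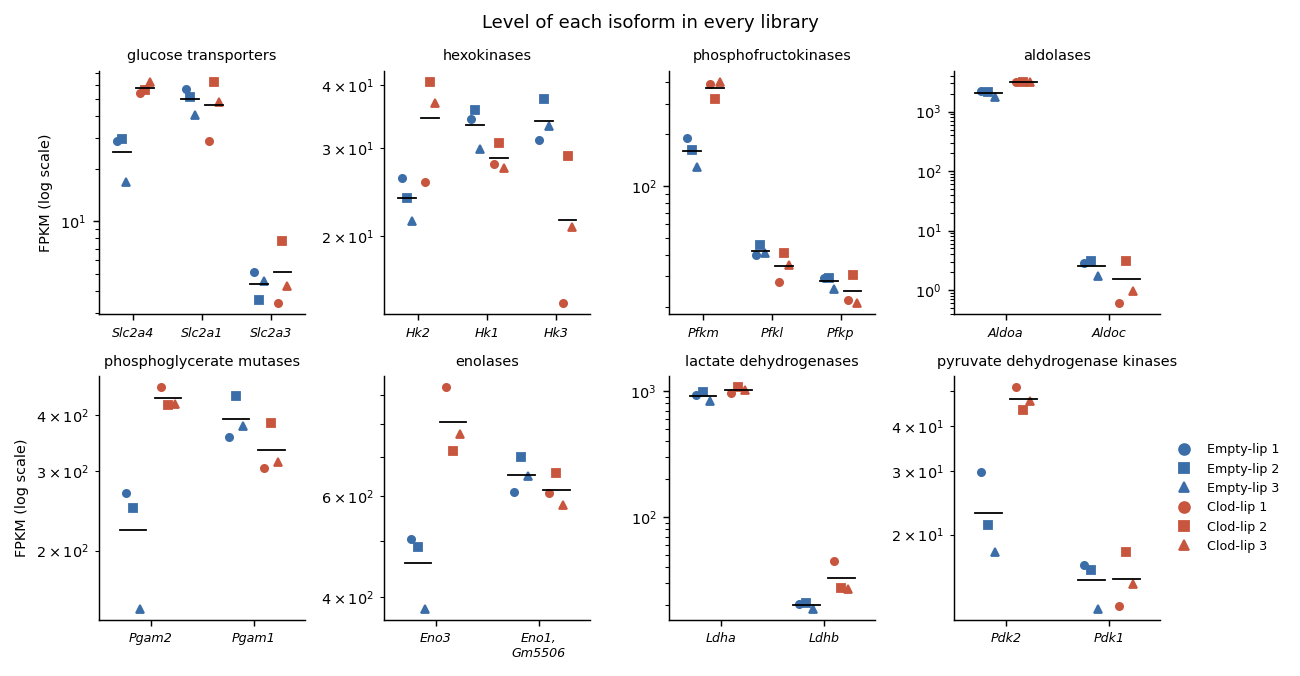
FPKM on a log axis in each library, for 8 families of glycolytic isoforms, with Empty-lip in blue, Clod-lip in red and black lines at group means. Pgam2 and Eno3 lie below their counterparts in Empty-lip and above them in Clod-lip, and Aldoa exceeds Aldoc in all 6 libraries.

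The remaining enzymes of the lower steps have a single gene active in most cells. Gapdh, glyceraldehyde 3-phosphate dehydrogenase, often used as a reference gene, held 2000.3, 2052 and 1797 FPKM in the Empty-lip libraries and 2329, 2490 and 2159 FPKM in those of Clod-lip. The groups did not overlap, yet it did not pass (1.19-fold, log2 0.25 ± 0.10, limma adjusted p = 0.200). Pgk1, phosphoglycerate kinase, stood at 656 ± 50.8 and 671 ± 28.4 FPKM. Pkm, pyruvate kinase, whose splice forms differ between muscle and other cells and are not resolved in these values, stood at 1142 ± 73.1 and 1191 ± 76.8 FPKM, with log2 at 0.03 and 0.06 (limma adjusted p = 0.868 and 0.765).

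Lactate genes did not pass. Ldha, the dehydrogenase subunit abundant in muscle and glycolytic cells, held 927, 989 and 840 FPKM in the Empty-lip libraries and 970.1, 1072 and 1023 FPKM in those of Clod-lip, with overlapping groups (log2 0.16, limma adjusted p = 0.387). Ldhb, the subunit of heart and oxidative tissue, held 20.5, 20.8 and 18.7 FPKM in the Empty-lip libraries and 44.9, 27.4 and 26.7 FPKM in those of Clod-lip. All Clod-lip values lay above Empty-lip, with Clod-lip 1 standing apart (log2 0.66 ± 0.19, limma adjusted p = 0.0986; authors' deposited table, q = 0.000928). Slc16a1 and Slc16a3, the lactate transporters MCT1 and MCT4, held 18.5 to 25.2 and 71.1 to 103 FPKM in the Empty-lip libraries, and 19.5 to 19.8 and 77.7 to 125 FPKM in those of Clod-lip. Both had overlapping groups (limma adjusted p = 0.767 and 0.803).

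Flux through glycolysis is set by bifunctional kinases that make fructose 2,6-bisphosphate, the activator of phosphofructokinase, and by kinases that switch off pyruvate dehydrogenase. Pfkfb1, the form of liver and muscle, held 2.56, 1.60 and 2.46 FPKM in the Empty-lip libraries and 9.83, 5.36 and 4.65 FPKM in those of Clod-lip. It rose from a low level without overlap, Clod-lip 1 being highest (3.00-fold, log2 1.20 ± 0.26, limma adjusted p = 0.0490). Pfkfb3, the form induced by hypoxia and inflammation, stood at 30.2 ± 7.98 and 32.4 ± 12.0 FPKM, Pfkfb4, also induced by hypoxia, at 12.4 ± 0.0154 and 13.6 ± 2.03 FPKM and Pfkfb2, abundant in heart, at 2.99 ± 0.373 and 2.85 ± 0.380 FPKM. None of the other three passed. The very small spread of Pfkfb4 in Empty-lip came from 12.46, 12.43 and 12.43 FPKM.

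Pdk2, a pyruvate dehydrogenase kinase of muscle and many tissues (mm10 chromosome 11, 95026258 to 95041354), held 29.8, 21.2 and 17.9 FPKM in the Empty-lip libraries and 51.1, 44.2 and 46.9 FPKM in those of Clod-lip. The groups did not overlap (2.07-fold, log2 1.04 ± 0.17, limma adjusted p = 0.0246). Pdk1, the HIF-1 target of the same family, ranged from 12.5 to 16.4 FPKM in the Empty-lip libraries and from 12.7 to 17.9 FPKM in those of Clod-lip (log2 0.00, limma adjusted p = 0.994).

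Both genes of branches around glycolysis were higher in all Clod-lip libraries, and 1 of them passed. Gpd1, which turns a glycolytic triose into glycerol 3-phosphate (mm10 chromosome 15, 99717515 to 99725005), held 26.9, 27.0 and 19.5 FPKM in the Empty-lip libraries and 50.9, 45.1 and 61.6 FPKM in those of Clod-lip (2.15-fold, log2 1.07 ± 0.16, limma adjusted p = 0.0184). Fbp2, the fructose bisphosphatase of muscle, held 2.95, 4.98 and 4.46 FPKM in the Empty-lip libraries and 19.2, 8.31 and 9.40 FPKM in those of Clod-lip. Clod-lip 1 stood apart, and at 1.31 ± 0.30 on the log2 scale the gene missed the threshold (limma adjusted p = 0.0564; authors' deposited table, q = 0.000928).

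Ratios within a family cancel any scaling between libraries, but not a difference in how much muscle each sample held, which was not tested. Pgam2 made up 42.9%, 36.1% and 28.2% of the summed FPKM of both mutases in Empty-lip 1, 2 and 3 and 60.1%, 52.3% and 57.4% in Clod-lip 1, 2 and 3. Eno3 made up 41.1 ± 4.15% of its family, counting the joined entry, in Empty-lip and 56.6 ± 4.16% in Clod-lip. For Pfkm the shares were 69.3 ± 3.74% and 86.1 ± 3.76%, for Hk2 26.2 ± 2.10% and 40.5 ± 2.89%, and for Slc2a4 31.2 ± 3.90% and 53.8 ± 9.11%. Within Clod-lip, library 2 had the lowest share for Pgam2, Eno3, Pfkm and Slc2a4, and library 1 the lowest for Hk2.

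**Figure D3:**
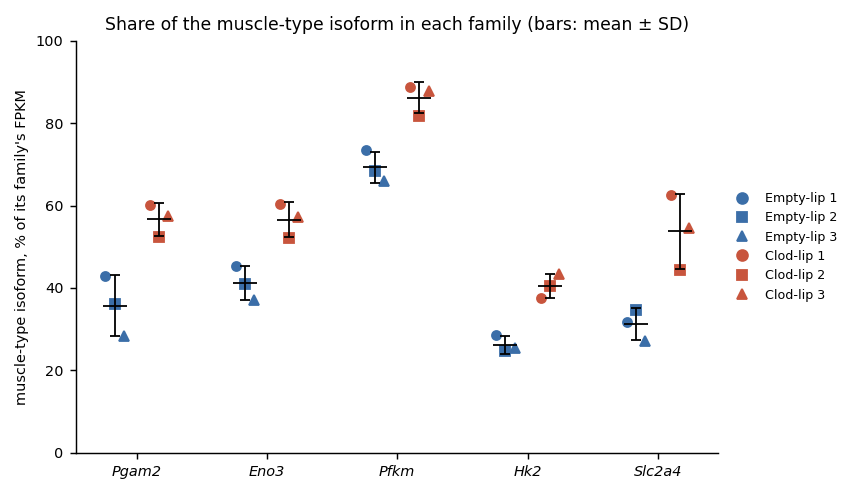
Share of the muscle-type isoform in the summed FPKM of its family, in percent, for each library (Empty-lip blue, Clod-lip red; black bars are mean ± SD, n = 3). In all 5 families the 3 Clod-lip libraries lie above the 3 Empty-lip libraries, with the widest spread for Slc2a4 in Clod-lip.

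On the log2 scale the ratio of muscle-type to other isoform was higher in Clod-lip by 1.25 for Pgam2, 0.90 for Eno3, 1.49 for Pfkm, 0.94 for Hk2 and 1.37 for Slc2a4. The ratio of Aldoa to Aldoc was higher by 1.65, and that of Ldhb to Ldha by 0.53. No group overlapped in any of the 7 ratios. Each gave an exact two-sided permutation p of 0.1, also 0.1 after Benjamini-Hochberg adjustment over the 7, the smallest that 3 against 3 libraries allow. The share of ratios of other genes without overlap was not computed. In FPKM, all Clod-lip libraries lay above Empty-lip for 14.0% of all genes tested and below for 13.4%. Every gene on top of these ratios except Hk2 was itself without overlap in FPKM, so the ratios partly repeat that result.

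Most contractile markers of muscle fibres rose beside the muscle-type isoforms. Of 22 contractile markers measured, none at 0 in any library, 16 rose and 6 did not pass. These 6, Myh7, Myl2, Myl3, Tnnt1, Tnni1 and Tnnc1, are forms known from slow fibres, some of them also from heart. Their log2 changes were 0.20, 1.01, 0.48, -0.21, -0.24 and -0.09 in that order. For Myl2 all Clod-lip libraries lay above Empty-lip (limma adjusted p = 0.103; authors' deposited table, q = 0.0434). The summed level of all 22 contractile markers ran from 13429 to 18529 FPKM in Empty-lip and from 29454 to 31852 FPKM in Clod-lip. The summed level of the 7 muscle-type isoforms was 1024, 959 and 704 FPKM in Empty-lip 1, 2 and 3 and 1888, 1573 and 1710.1 FPKM in Clod-lip 1, 2 and 3. That sum was 1.92-fold higher in Clod-lip, and the contractile sum was also 1.92-fold higher (exact two-sided permutation p = 0.1 for each, the smallest possible). In bulk tissue, more muscle in a sample cannot be told apart from more of these RNAs per fibre. Divided by the contractile sum, the muscle-type isoforms stood at 56.3 ± 4.51 FPKM in the Empty-lip libraries and 56.6 ± 5.31 FPKM in those of Clod-lip per 1000 FPKM of contractile markers (exact two-sided permutation p = 1).

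For 3 single genes the groups did not overlap on that scale. Per 1000 FPKM of contractile markers, Pfkm stood at 10.1 ± 0.429 FPKM in the Empty-lip libraries and 12.2 ± 1.12 FPKM in those of Clod-lip, and no values overlapped. Aldoa stood at 129 ± 7.18 and 104 ± 4.13 FPKM and Hk2 at 1.51 ± 0.0928 and 1.13 ± 0.265 FPKM on the same scale, both lower in every Clod-lip library. RNA of these genes can also come from cells other than muscle fibres, and its part in these ratios was not tested. The exact two-sided permutation p was 0.1 for each of these 3 genes, the smallest possible, with no adjustment over the genes divided in this way. The share of all genes without overlap on this scale was not computed. In FPKM, all Clod-lip libraries lay above Empty-lip for 14.0% of all genes tested and below for 13.4%. For Pgam2, Eno3, Slc2a4, Gpd1, Pdk2, Ldhb, Fbp2 and Pfkfb1 the groups overlapped on this scale, with exact two-sided permutation p between 0.2 and 0.9. In FPKM, single contractile markers changed unequally, from 0.83-fold for Tnni1 to 2.45-fold for Pvalb in Clod-lip relative to Empty-lip. Acta1, the most abundant marker, was 1.79-fold higher, and Atp2a1 was 2.32-fold higher, as was Pfkm. A higher level of Pfkm per contractile sum therefore does not set it apart from every contractile marker.

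**Figure D4:**
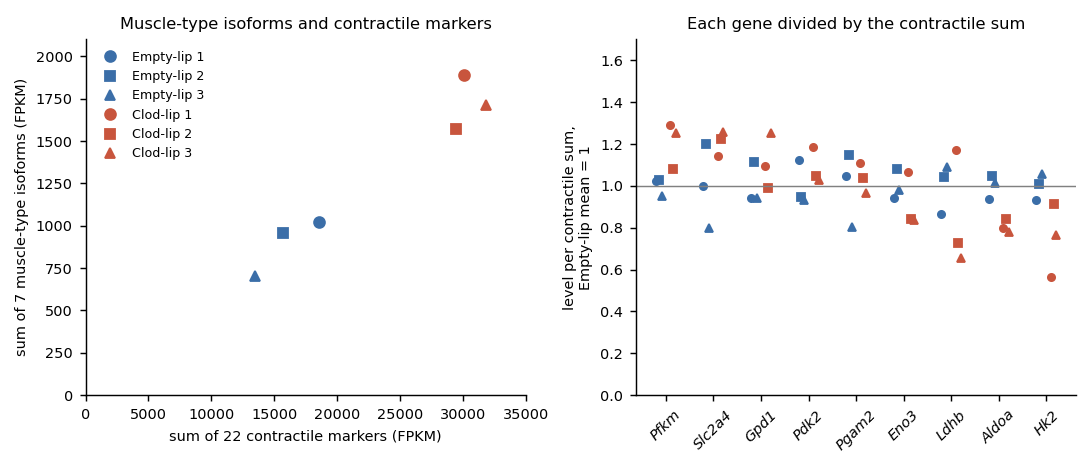
Left, summed FPKM of the 7 muscle-type isoforms against that of 22 contractile markers in each library. Right, each gene divided by the contractile sum of its library, relative to the Empty-lip mean. Pfkm, Slc2a4 and Pdk2 lie above 1 and Aldoa and Hk2 below 1 in all 3 Clod-lip libraries (red), and the groups overlap for Slc2a4 and Pdk2.

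Hypoxia-linked genes showed no shared direction: 3 had a positive and 3 a negative log2 change, and the groups overlapped for all 6. Hif1a, the oxygen-regulated subunit of HIF-1 and the most abundant of the 6, held 76.9, 71.0 and 73.1 FPKM in the Empty-lip libraries and 45.4, 73.0 and 55.0 FPKM in those of Clod-lip. Clod-lip 1 and 3 lay below Empty-lip and Clod-lip 2 within it (log2 -0.37 ± 0.16, limma adjusted p = 0.222; authors' deposited table, q = 0.0499). Without Clod-lip 2, Hif1a passed, at -0.55 on the log2 scale (limma adjusted p = 0.0190). P4ha1, a subunit of the enzyme that hydroxylates collagen prolines, stood at 52.5 ± 5.91 and 42.6 ± 9.99 FPKM. Adm, the precursor of the vasodilator adrenomedullin, stood at 16.6 ± 1.37 and 20.6 ± 2.44 FPKM, and neither passed (limma adjusted p = 0.336 and 0.185).

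Egln3, a prolyl hydroxylase that marks HIF for degradation and is itself induced by HIF, held 50.8, 40.3 and 36.3 FPKM in the Empty-lip libraries and 32.5, 64.5 and 44.6 FPKM in those of Clod-lip. The lowest and the highest of the 6 values were both in Clod-lip. Ndrg1, a gene induced by hypoxia and stress, stood at 41.6 ± 0.989 and 40.6 ± 7.46 FPKM, and Ankrd37 at 12.5 ± 4.82 and 13.1 ± 3.88 FPKM. None of these passed (limma adjusted p = 0.841, 0.868 and 0.883).

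Clod-lip 2 had the highest value of its group for 5 of the 6 hypoxia-linked genes, for 8 of the 9 isoforms of other tissues and for 1 of the 7 muscle-type isoforms. Clod-lip 1 had the lowest for 6 of the 6 hypoxia-linked genes and for 6 of the 9 isoforms of other tissues. Clod-lip 2 was also highest of its group for 7 of the 10 shared genes and 4 of the 5 regulatory kinases. The shares of all genes tested with these places were not computed, so these counts do not set the hypoxia-linked genes apart. As a mean over the hypoxia-linked genes, log2(FPKM + 1) relative to the Empty-lip mean was -0.36 in the first Clod-lip library, 0.28 in the second and -0.03 in the third. Over the isoforms of other tissues it was -0.41, 0.16 and -0.27, and over the muscle-type isoforms 1.20, 0.92 and 0.98. Of 7 neutrophil markers measured, none at 0 in any library, 3 rose, beside 2.84% of all genes tested, and 4 did not pass. Ngp, Camp and Ltf rose, by 3.53-fold, 4.40-fold and 3.47-fold with all Clod-lip libraries above Empty-lip. S100a8, S100a9, Retnlg and Cxcr2, at 2.14-fold, 2.35-fold, 2.81-fold and 1.03-fold, did not pass. The groups overlapped for S100a8, S100a9 and Cxcr2. The 7 summed to 873, 3383 and 1216 FPKM in Clod-lip 1, 2 and 3 and to 1286, 586 and 497 FPKM in Empty-lip 1, 2 and 3. Macrophage markers summed to 1928, 2667 and 1677 FPKM in Clod-lip 1, 2 and 3. The part of these cells in the differences between libraries was not tested.

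**Figure D5:**
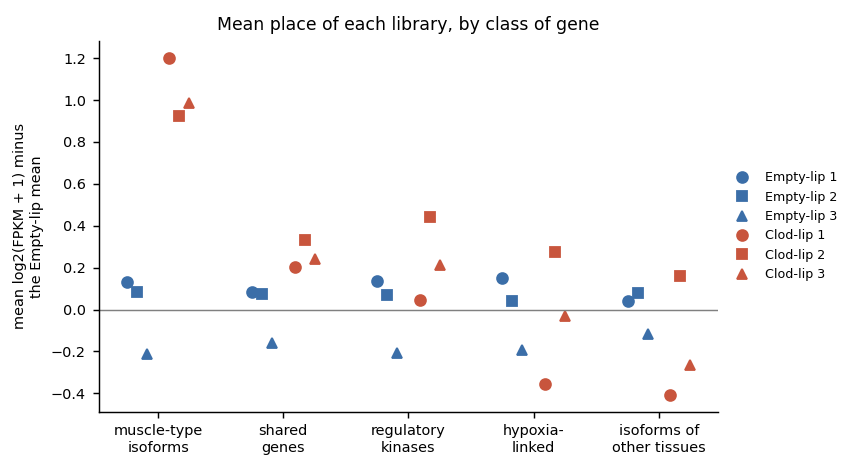
Mean over the genes of a class of log2(FPKM + 1) minus the Empty-lip mean, for each library (Empty-lip blue, Clod-lip red). The Clod-lip libraries lie together at 0.92 to 1.20 for the muscle-type isoforms and spread from -0.36 to 0.28 for the hypoxia-linked genes.

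Other genes around the pathway were read from a list of names. Of 35 further genes of glucose and pyruvate metabolism 30 were tested, and 4 rose, 0 fell and 26 did not pass (10 higher and 1 lower at an unadjusted p under 0.05, beside the same shares of 11.4% and 10.4% over all genes; 5 higher and 1 lower in the authors' deposited table). Pgm2, a phosphoglucomutase that links glycogen to glycolysis, rose from 95.1 ± 20.2 to 164 ± 16.8 FPKM, a log2 change of 0.80 ± 0.16 (limma adjusted p = 0.0396). Mpc1, a subunit of the mitochondrial pyruvate carrier, rose from 81.3 ± 2.87 to 113 ± 6.00 FPKM, a log2 change of 0.47 ± 0.07 (limma adjusted p = 0.0217). Pdp1, the phosphatase that reactivates pyruvate dehydrogenase, rose from 8.54 ± 0.206 to 14.1 ± 2.00 FPKM, and Pdpr, the regulatory subunit of that phosphatase, from 7.59 ± 0.514 to 11.8 ± 1.46 FPKM (limma adjusted p = 0.0327 and 0.0416). Pdk2, a kinase that opposes them, also rose, as given above. Pdk4 and Pdk3, kinases of the same family, did not pass (limma adjusted p = 0.181 and 0.288). Pdk4 stood at 65.9 ± 5.49 and 45.6 ± 14.7 FPKM (authors' deposited table, q = 0.00243), and Pdk3 at 15.4 ± 0.647 and 13.5 ± 0.0890 FPKM. For both, all Clod-lip libraries lay below Empty-lip. Of the 26 further genes linked to hypoxia, 25 were tested and 0 passed in limma, with 4 higher and 2 lower at an unadjusted p under 0.05, beside 11.4% and 10.4% of all genes, and 3 called higher in the authors' deposited table. The most abundant of both lists were Hmox1, haem oxygenase, at 687 ± 49.9 and 649 ± 131 FPKM, Bsg, the chaperone of lactate transporters, whose deposited locus spans many genes, at 342 ± 18.3 and 363 ± 22.2 FPKM, and Txnip, which restrains glucose uptake, at 155 ± 6.40 and 183 ± 22.7 FPKM.

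In levels per transcript length, the 37 genes spanned means from 2.03 FPKM for Aldoc to 2592 FPKM for Aldoa. In Empty-lip, Aldoa and Gapdh stood within each other's spread at 2031 ± 249 and 1950 ± 135 FPKM, whereas in Clod-lip Aldoa, at 3152 ± 53.1 FPKM, exceeded Gapdh, at 2326 ± 166 FPKM, in every library. Pkm and Ldha came next in both groups. The 37 genes together made up 1.60 ± 0.128% of FPKM outside small RNA genes across Empty-lip libraries and 2.05 ± 0.0325% across those of Clod-lip (exact two-sided permutation p = 0.1, the smallest possible), with no overlap.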

How the data were processed

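RNA sequencing of total RNA was done on 3 Empty-lip and 3 Clod-lip samples, grouped by their titles. TopHat and build mm10 are named in the submitters' processing notes, with no version. Per the file headers, the authors deposited FPKM per library and per group and a p-value and q-value per gene, and no source used here names the tools that made them. FPKM are not counts, so limma 3.58.1 in R 4.3.3 was applied to log2(FPKM + 1) for genes whose mean reached 0.5 FPKM, letting the prior variance follow expression, with Benjamini-Hochberg adjustment. Fold changes on that scale understate changes of low genes. Ratios and sums were compared with exact permutation tests in scipy 1.17.1.

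The genes, classes and lists were chosen with earlier results of these data known. All 37 genes are named. Of other pathway genes, those that passed, the 3 of highest mean, and Pdk3 and Pdk4 are named. Positions come from GENCODE M21, same build, which overlaps the deposited position for 37 of 37, and exons of 16 overlap another gene. On simulated data for Clod-lip against Empty-lip, with 200 of 13408 genes changed, the test recovered 72.6% of 2-fold and 95% of 4-fold changes, with 8.2 false calls on average. Alternatives were other pseudocounts, filters, scalings, no trend, the replicate number as a block and each library left out.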

Additional observations from a re-analysis of the deposited data

How the results depend on the processing

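The direction of the 8 genes that rose was kept under all 16 alternatives in which each could be tested. Their number was 3 with the replicate number as a block, 0 with no filter on low values and 5 without trend, and 0 to 9 when a library was left out, while the number that fell ranged from 0 to 3. Without Empty-lip 1 and Clod-lip 2 together, an alternative chosen after seeing the data, 2 fell. Of the muscle-type isoforms, 2 rose with the block, 0 with no filter, 2 without trend and 0 to 6 with a library left out, and their median change ranged from 0.95 to 1.22. Over all genes, 543 passed, 170 with the block, 56 with no filter, 284 without trend, 1101 without Empty-lip 1 and Clod-lip 2, and 2 to 1392 with a library left out. The cause was not tested. Same-numbered libraries deviated from their group means with correlations of -0.08, -0.04 and 0.08, so the number is not taken as a pairing. Pseudocounts of 0.1 and 0.5, a minimum of 5 FPKM and 3 other scalings left 6 to 9 that rose.

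Sign changes (23 values, 11 genes) arose only among genes that did not pass, in size at most 0.15 in the full data. With a library left out, log2 changes ranged from -0.40 to 0.15 for Slc2a1, -0.15 to 0.34 for Slc2a3, -0.013 to 0.094 for Pgk1, -0.16 to 0.053 for Slc16a1, -0.077 to 0.26 for Slc16a3, -0.13 to 0.020 for Pfkfb2, -0.20 to 0.33 for Pfkfb3, -0.12 to 0.11 for Pdk1, -0.14 to 0.34 for Egln3, -0.18 to 0.087 for Ndrg1, -0.24 to 0.29 for Ankrd37. Without Empty-lip 1 and Clod-lip 2 they were -0.061 for Slc2a3, -0.013 for Pgk1, 0.059 for Slc16a1, -0.058 for Pfkfb3, -0.052 for Pdk1, -0.0045 for Egln3.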
